A study of Sus scrofa with 12 samples.

Results

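Cytoplasmic polyadenylation was followed here through 10 genes in maturing porcine oocytes. They are the CPE-binding proteins CPEB1, CPEB2, CPEB3 and CPEB4, the poly(A) polymerases PAPOLA, PAPOLG and TENT2, the cleavage factors CPSF4 and SYMPK, and the deadenylase PARN. The genes were picked by name for their role, and each was matched by symbol to 1 of the 31908 pig Ensembl identifiers in the data. Of the 10, 8 had a mean of at least 1 FPKM and entered the test over 7013 genes, while CPEB3 and SYMPK lay under that level. FPKM counts fragments per length of transcript and relative to all fragments of the library, so levels are given per length. Orders of genes by level are those of the listed values, which sequence shared between relatives and capture by the tail can also enter.

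The oocytes came from antral follicles of ovaries of prepubertal gilts from a slaughterhouse and were matured within their cumulus cells. The medium was based on TCM199 with porcine follicular fluid, epidermal growth factor, PMSG and HCG. In vitro maturation lasted 0h, 22h or 46h, and cumulus cells were removed in all 3. The study takes these times to stand for the germinal vesicle stage, the approach to metaphase I and metaphase II, from an earlier count of nuclear stages at slightly different times. In that count not all oocytes had reached the stage, and the nuclear stage of the oocytes in these pools is not given in the sources used here. Each group had 4 libraries, each made from a pool of oocytes, so fewer oocytes with a transcript and less of it per oocyte cannot be told apart. Nothing in the labels says whether the pools came from separate animals or cultures, so the p-values measure the spread between these samples, which may be technical.

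In a full-grown oocyte transcription is largely silent, and stored mRNAs with short poly(A) tails are kept untranslated until meiosis resumes. CPEB1 binds the cytoplasmic polyadenylation element (CPE) in the 3′ untranslated region, while CPSF, the complex to which CPSF4 belongs, binds the nearby hexamer AAUAAA, and SYMPK acts as a scaffold. A poly(A) polymerase then lengthens the tail and a deadenylase such as PARN shortens it, and a longer tail favours translation. The cDNA of these libraries was primed with oligo-dT, which needs a poly(A) tail. A larger amount of an mRNA and a longer tail, or one that is better captured, therefore cannot be told apart in any value given here.

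The same sequence elements were looked for in the 3′ ends of the mRNAs of these 10 genes, to show which of them carry letters of the kind their products read. The search covered the last 100 bases of the RefSeq transcript on Sscrofa11.1, on the transcript strand only, for TTTTAT and TTTTAAT as CPE and for AATAAA and ATTAAA as hexamer. TTTTAAT can overlap AATAAA by its last bases. A 3′ end was found for 9 of the 10, since the RefSeq model of CPEB1 has none of sufficient length. The end used was the one with most transcripts of the gene, or the furthest in a tie, and other annotated ends were not searched. PAPOLG and SYMPK have 2 ends, with 1 of 2 transcripts at the one used, and PAPOLA has 3, with 4 of 8. CPEB2 and CPEB3 also have 2 ends, with 8 of 9 and 23 of 24 transcripts at the one used. At the ends used TTTTAT stood in 3 genes, CPSF4, CPEB3 and PAPOLG, and none held TTTTAAT. Among 5305 tested genes with a 3′ end, 17.9% held TTTTAT and 6.75% TTTTAAT. All 9 held a hexamer, against 79.96% of those genes. In the lines below the capitals mark CPE and hexamer, and CCNB1, the mRNA of cyclin B1 and a textbook target of CPEB1, is set beside them. Chromosome positions given after the lines are those of the whole printed stretch, while distances to the transcript end are counted from the first base of the motif.
CPSF4: aatTTTTATgaagttgATTAAAgct
CPEB3: tggAATAAAttaaTTTTATgat
PAPOLG, CPE: ctcccgccTTTTATttggattg
PAPOLG, hexamer: agtaatcaAATAAActtgcttt
PAPOLA: gaaaacacAATAAAaaaaaaac
TENT2: ccaaatggAATAAAgtttatat
PARN: agatgaaaATTAAAggaatttt
CPEB4: gttgaatgAATAAAacttttaa
CCNB1, CPE: aatgagaaTTTTAATttatattc
The CPSF4 site lies at chr3:6388622-6388646 on the plus strand, and its TTTTAT starts 38 bases before the transcript end and its ATTAAA 25. In CPEB3 (chr14:103675396-103675417, minus strand) the order is turned, with AATAAA 82 and TTTTAT 72 bases before the end. In PAPOLG the TTTTAT (chr3:80986472-80986493, minus strand) starts 91 bases and the AATAAA (chr3:80986403-80986424) 22 bases before the end. The hexamers of PAPOLA (chr7:117740315-117740336, plus), TENT2 (chr2:88388211-88388232, plus), PARN (chr3:28802478-28802499, plus) and CPEB4 (chr16:50430350-50430371, minus) start 26, 24, 21 and 19 bases before their ends. The CCNB1 site is at chr16:47348304-47348326 on the plus strand. All of these lie in 3′ untranslated exon sequence, and a match of letters is a description and not a bound site.

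The libraries held the markers of oocytes. Of 10 oocyte genes 8 were matched, and all 8 had a mean of at least 1 FPKM. Of 15 cumulus and granulosa genes 12 were matched, and only VCAN and STAR reached that mean. VCAN, a matrix proteoglycan of expanded cumulus, was at 58.3 ± 22.2, 65.0 ± 14.2 and 125.9 ± 14.4 FPKM in order of time (SD, n = 4), a rise of 1.18 at 46h against 0h (limma adjusted p = 0.0015), and its part in the results was not tested. STAR passed in no comparison. All 12 summed to between 36.8 and 85.6 FPKM in 0h libraries, 52.2 and 82.3 in those of 22h and 110.8 and 139.9 in those of 46h. The other 10 summed to at most 0.76 FPKM in any library, with INHA, LHCGR and KRT18 listed at 0 at every stage. The beta-actin gene ACTB was itself between 0 and 0.70 FPKM, so these low values do not show that cumulus RNA was absent. Blood and immune genes summed to at most 0.19 FPKM. The summed oocyte markers ranged between 11916 and 17930 FPKM at 0h, between 15334 and 22592 at 22h and between 3894 and 7322 at 46h. Replicate 4 of 0h stood furthest from its stage, with correlations of 0.934 to 0.970 to the other 0h libraries. As FPKM carries no read numbers, depth is unknown and counting errors cannot be stated. The 13 mitochondrially encoded genes took at least 1.79% and at most 3.76% of a library's FPKM at 0h. Their share lay between 8.06% and 12.02% in the 22h libraries and between 12.8% and 16.7% in those of 46h, which enters the scaling of all other genes. The genes at 1 FPKM or more numbered 6939 to 7895, 6682 to 7135 and 5819 to 6076 in the same order. The share was separate between all stages and the number of genes only between 46h and the others, and their part in the results was not tested apart from TPM without the mitochondrially encoded genes.

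At 0h the order of the levels by mean FPKM was PAPOLG, CPEB1, PARN, CPSF4, CPEB4, TENT2, CPEB2, PAPOLA, CPEB3 and SYMPK. At 46h it was CPEB1, PARN, CPSF4, PAPOLA, CPEB4, TENT2, CPEB2, PAPOLG, CPEB3 and SYMPK. PAPOLG thus went from rank 1 to rank 8 and PAPOLA from rank 8 to rank 4. Most neighbours in these orders overlapped. At 0h the libraries were separate only between CPEB1 and PARN, PAPOLA and CPEB3, and CPEB3 and SYMPK. At 22h CPEB1 was separate from CPSF4 as the next, and TENT2, CPEB3 and SYMPK were separate from each other. At 46h CPEB1 was separate from PARN, PAPOLA from CPEB4, PAPOLG from CPEB3, and CPEB3 from SYMPK.

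**Figure D1:**
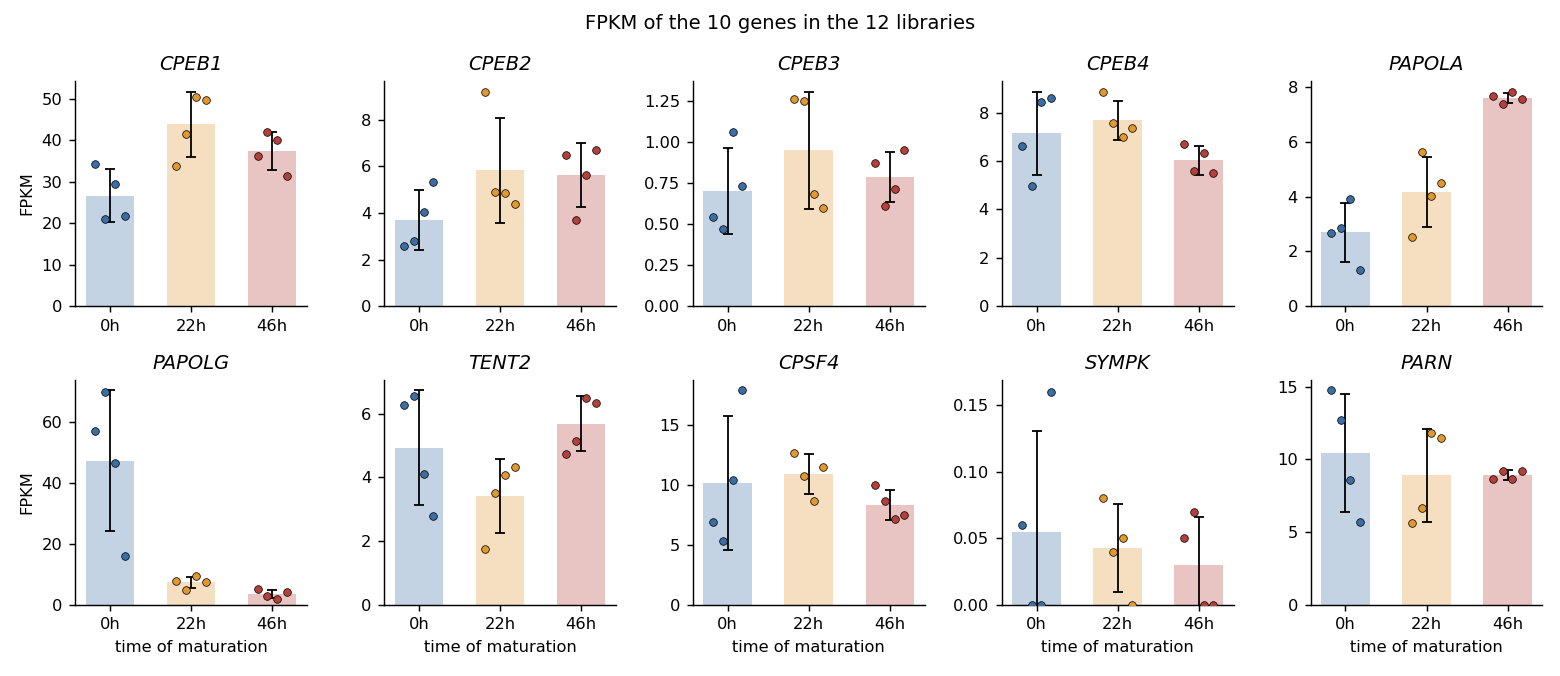
FPKM (vertical axes, each gene on its own scale from 0) of the 10 genes at 0h, 22h and 46h. Points are the 4 libraries of a stage, bars their mean and lines 1 SD. PAPOLG goes from 15.83 to 69.60 FPKM at 0h down to between 2.0 and 5.13 FPKM at 46h, the 4 PAPOLA values at 46h lie between 7.37 and 7.83 FPKM above all earlier ones, and SYMPK stays at or under 0.16 FPKM.

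The question of each comparison was which transcripts differed between stages of maturation. With limma on log2(FPKM + 1), a gene passed at a Benjamini-Hochberg adjusted p under 0.05 over all genes tested and a fold change over 1.5. At 22h against 0h, 2 of the 8 tested members passed, CPEB1 higher and PAPOLG lower, where 26.7% of all genes passed, 7.84% higher and 18.9% lower. At 46h against 22h, PAPOLA and TENT2 passed, both higher, where 42.4% of all genes passed, 9.87% higher and 32.6% lower. At 46h against 0h, PAPOLA passed as higher and PAPOLG as lower, where 55.9% of all genes passed, 16.8% higher and 39.1% lower. The share of members that passed was thus near or below that of all genes in each comparison. The median log2 change of the 8 members was 0.16, -0.12 and 0.04 in the same order, beside -0.00, -0.26 and -0.25 for all genes. The 46h and 22h comparisons with 0h share the 0h libraries, and are set side by side as values only.

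**Figure D2:**
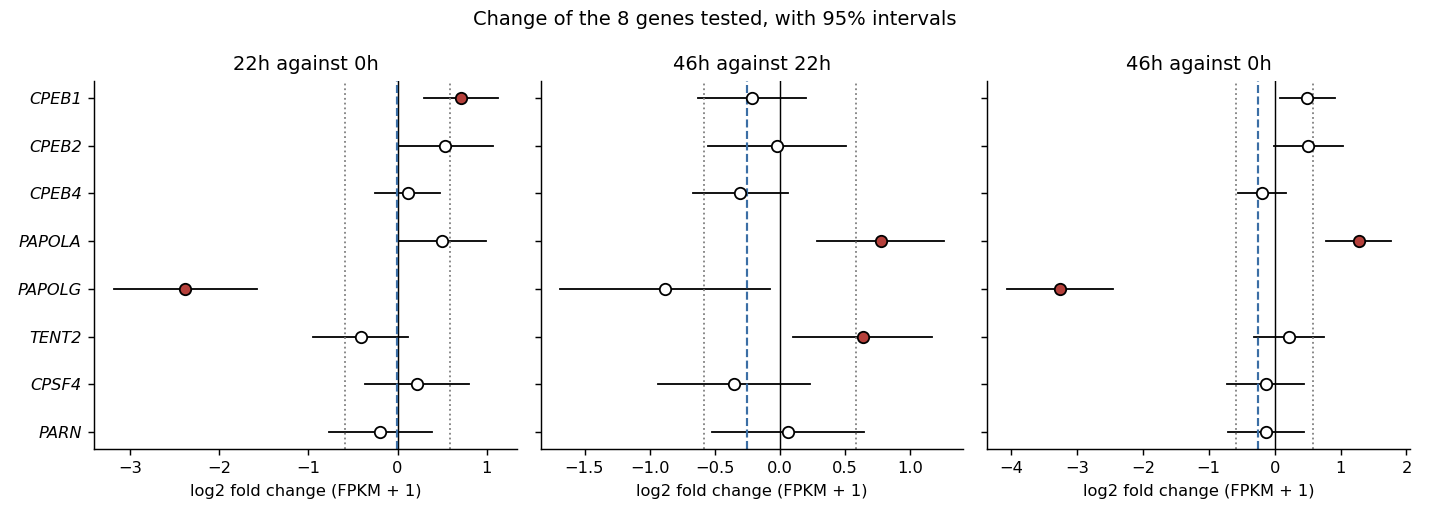
Log2 fold change of FPKM + 1 (horizontal axes) of the 8 tested genes in the 3 comparisons of stages, with unadjusted 95% intervals from limma. Red points passed both thresholds and white ones did not, dotted lines mark a 1.5-fold change and the dashed line the median of all genes. PAPOLG at -2.38 and -3.26 against 0h is furthest from 0.

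CPEB1 was the most abundant of the CPE-binding proteins at every stage. It is the founding member of the family and the one best known for holding back and then activating stored mRNAs of the oocyte. The gene (ENSSSCG00000001808, chromosome 7 from 52329054 to 52382408) gave 34.39, 20.98, 29.34 and 21.84 FPKM in replicates 1 to 4 of 0h. At 22h the values were 33.74, 41.49, 50.41 and 49.73 FPKM, and at 46h 36.20, 41.94, 40.08 and 31.45 FPKM. Thus 3 of the 4 values of 22h exceeded the highest of 0h, and replicate 1 of 22h fell just under replicate 1 of 0h. The means were 26.6 ± 6.39 (SD, n = 4), 43.8 ± 7.86 and 37.4 ± 4.64 FPKM. CPEB1 rose at 22h by 0.71 on the log2 scale (SE 0.193, limma adjusted p = 0.0129), and this call held under every alternative tried, with changes from 0.61 to 0.84. From 22h to 46h the change was -0.21 (adjusted p = 0.382, interval -0.63 to 0.20), and it was 0.13 and 0.22 with median-of-ratios and quantile scaling. The CPEB1 difference of 0.50 at 46h against 0h had an adjusted p of 0.0374 and a size under the fold threshold. Quantile normalization took it past the thresholds at 1.03, as did median-of-ratios scaling at 0.89, TPM without mitochondrially encoded genes at 0.59 and the fit without replicate 1 of 0h at 0.62.

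CPEB2, CPEB3 and CPEB4 form the other branch of the family and are close relatives of each other, so that reads may be shared among them, which was not tested. CPEB2 (ENSSSCG00000038410, chromosome 8 from 10401350 to 10472141) was at 2.57, 2.78, 4.04 and 5.34 FPKM at 0h. It gave 9.20, 4.91, 4.87 and 4.38 FPKM at 22h and 6.47, 3.70, 5.61 and 6.71 at 46h. Replicate 1 of 22h stood alone at the top, and the stages overlapped in all comparisons. Its log2 changes were 0.54 at 22h (adjusted p = 0.113) and 0.51 at 46h (adjusted p = 0.0842, interval -0.02 to 1.04), both against 0h. Neither passed as deposited. The change at 22h passed with quantile normalization at 0.71 and without replicate 4 of 0h at 0.69. The change at 46h passed with median-of-ratios scaling at 0.85, quantile normalization at 1.19, TPM without mitochondrially encoded genes at 0.62, without replicate 4 of 0h at 0.67 and without replicate 2 of 46h at 0.67. From 22h to 46h the change was -0.02, and without replicate 1 of 22h it was 0.19 and still not past the test.

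CPEB4 takes over from CPEB1 late in meiosis in the frog, where its mRNA is itself a target of CPEB1. In these oocytes CPEB4 (ENSSSCG00000016981, chromosome 16 from 50430345 to 50499086) gave 6.61, 4.97, 8.45 and 8.59 FPKM at 0h. It gave 8.85, 7.59, 7.0 and 7.35 FPKM at 22h and 6.72, 5.59, 6.33 and 5.49 at 46h. Every library of 46h was below every library of 22h, a separation seen in 48.6% of all genes, 35.4% of all in this direction. The fitted change between them was -0.31 (adjusted p = 0.154, interval -0.67 to 0.06) and did not pass. Median-of-ratios scaling gave 0.00 and quantile normalization 0.19, so its direction depended on the scaling. At 46h against 0h the change was -0.19 (adjusted p = 0.343, interval -0.56 to 0.17), and 0.16 and 0.47 with these scalings. Exons of CPEB4 share 993 bases with a further RefSeq gene on the same strand and 697 bases with one on the opposite strand, and their part in these values was not tested.

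CPEB3 was listed at low values, in a file where the beta-actin gene ACTB is itself between 0 and 0.70 FPKM. The gene (ENSSSCG00000010468, chromosome 14 from 103675164 to 103871245) gave 0.54, 0.47, 1.06 and 0.73 FPKM at 0h, 1.26, 1.25, 0.68 and 0.60 at 22h, and 0.87, 0.61, 0.71 and 0.95 at 46h. The stages overlapped. Permuting the 4 against 4 libraries exactly, two-sided and on log2(FPKM + 1), gave p = 0.229 at 22h and p = 0.571 at 46h against 0h, and p = 0.514 between 22h and 46h, where 0.0286 is the smallest p that such a test can give.

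Within the family the balance kept to CPEB1. CPEB1 made up 69.5% ± 7.57 of the summed FPKM of the 4 CPEB genes at 0h, 74.7% ± 7.78 at 22h and 74.9% ± 4.65 at 46h (SD, n = 4), with overlapping libraries. CPEB4 was at 0.278 ± 0.0865 of CPEB1 at 0h, 0.183 ± 0.0562 at 22h and 0.163 ± 0.0228 at 46h. All 46h libraries, with at most 0.186, lay under all 0h libraries, with at least 0.192. Such ratios of 2 genes in one library do not move when all its values are scaled by 1 factor, though quantile normalization can change them, and as descriptions they carry no test.

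PAPOLG was the member that changed most. It encodes poly(A) polymerase gamma, a close relative of the canonical nuclear polymerase PAPOLA. At 0h the gene (ENSSSCG00000008389, chromosome 3 from 80986395 to 81025369) was the highest of the 10 by mean, at 57.05, 69.60, 46.53 and 15.83 FPKM. At 22h it was at 7.63, 4.95, 9.44 and 7.31 FPKM, and in 46h oocytes at 5.13, 2.96, 2.0 and 4.28 FPKM. Replicate 4 of 0h was the lowest of its stage and still above every later library. The means went from 47.3 ± 23.0 to 7.33 ± 1.84 and 3.59 ± 1.39 FPKM (SD, n = 4).
PAPOLG fell by 2.38 on the log2 scale at 22h (SE 0.375, limma adjusted p = 0.000367), a 5.21-fold change of FPKM + 1, and it ranked 71 from the lowest of the 7013 genes tested. The libraries did not overlap, as in 28.9% of all genes, 18.6% of all being lower and 10.3% higher. At 46h against 0h it fell by 3.26 (SE 0.375, adjusted p = 3.23e-06), or 9.61-fold on the same scale, and its change relative to the median of all genes was -3.01. In that comparison it ranked 393 from the lowest of the 7013 genes, less far out than at 22h. Both calls held under every alternative. Without replicate 4 of 0h the changes were -2.83 and -3.71, and over the 5 scalings the change at 46h ran from -3.43 to -2.60. Between 22h and 46h the change of -0.88 had an adjusted p of 0.0658 and did not pass. It passed with a pseudocount of 0.1 at -1.06, in a fit of these stages alone (adjusted p = 0.00977) and without replicate 4 of 0h (adjusted p = 0.0062).

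PAPOLA went the other way. It encodes the canonical poly(A) polymerase, which tails pre-mRNA in the nucleus and is also held to act on tails in the oocyte cytoplasm. The gene (ENSSSCG00000002505, chromosome 7 from 117676083 to 117740348) gave 2.67, 2.85, 3.92 and 1.32 FPKM at 0h, 2.53, 5.62, 4.03 and 4.51 at 22h, and 7.66, 7.37, 7.83 and 7.58 at 46h. The 46h libraries were close together and above all others. Stages 46h and 0h were separate in 57.3% of all genes, 18.2% of all as higher like PAPOLA and 39.2% as lower like PAPOLG, and 46h lay wholly above 22h in 13.2%. PAPOLA rose by 0.77 from 22h to 46h (SE 0.228, limma adjusted p = 0.0122), with 0.60 to 0.90 when single libraries were left out. Against 0h it rose by 1.27 at 46h (SE 0.228, adjusted p = 0.000217), a 2.42-fold change on the log2(FPKM + 1) scale. That was 1.52 above the median of all genes, and it ranked 245 from the top of 7013. The change at 22h against 0h was 0.50 (adjusted p = 0.108, interval 0.01 to 0.99) and passed only without replicate 1 of 22h, at 0.67.

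TENT2, also called GLD2 or PAPD4, is the non-canonical cytoplasmic polymerase that acts with CPEB1 in frog oocytes. The gene (ENSSSCG00000014114, chromosome 2 from 88328250 to 88388242) gave 6.27, 6.56, 4.10 and 2.78 FPKM at 0h. It gave 1.76, 3.51, 4.07 and 4.32 FPKM at 22h and 4.75, 5.15, 6.50 and 6.32 at 46h. The lowest 46h library was above the highest of 22h, while those of 0h overlapped with both. The rise from 22h to 46h was 0.63 (SE 0.249, limma adjusted p = 0.0487), just past the threshold. This call rests on single libraries and settings. It was lost without replicate 1 of 22h at 0.42 (adjusted p = 0.158), without replicate 2 of 22h, replicate 3 of 0h or any library of 46h (adjusted p from 0.055 to 0.111), under TPM in either form, when low values were not filtered and with the replicate block. The changes against 0h were -0.41 at 22h (adjusted p = 0.221, interval -0.95 to 0.12) and 0.22 at 46h (adjusted p = 0.465), the latter past the thresholds with quantile normalization at 0.89.

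PAPOLG and PAPOLA changed places among the 3 polymerase transcripts, while TENT2 stood second of them by mean at 0h and at 46h. PAPOLG made up 84.8% ± 3.77 of their summed FPKM at 0h, 49.6% ± 12.3 at 22h and 21.0% ± 7.18 at 46h (SD, n = 4). The corresponding shares were 5.37% ± 1.80, 28.01% ± 8.43 and 45.2% ± 3.05 for PAPOLA and 9.82% ± 2.87, 22.4% ± 5.30 and 33.7% ± 5.24 for TENT2, whose own level at 46h against 0h did not pass the test. For PAPOLG the lowest library of 0h had 79.4% and the highest of 22h 64.0%, and the lowest of 22h 35.2% and the highest of 46h 29.2%, so no stages overlapped. The ratio of PAPOLG to PAPOLA was 21.4, 24.4, 11.9 and 11.99 at 0h, 3.02, 0.881, 2.34 and 1.62 at 22h, and 0.670, 0.402, 0.255 and 0.565 at 46h. PAPOLG was thus the higher of them in every library of 0h and the lower in every library of 46h. This pair was chosen after its values were seen, so the ratios carry no test. The sum of the 3 was 54.9 ± 25.3 FPKM at 0h, 14.9 ± 2.45 at 22h and 16.9 ± 1.21 at 46h, with replicate 4 of 0h lowest of its stage at 19.93 FPKM. PAPOLA and PAPOLG are similar in sequence, and how reads common to both were divided was not tested.

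**Figure D3:**
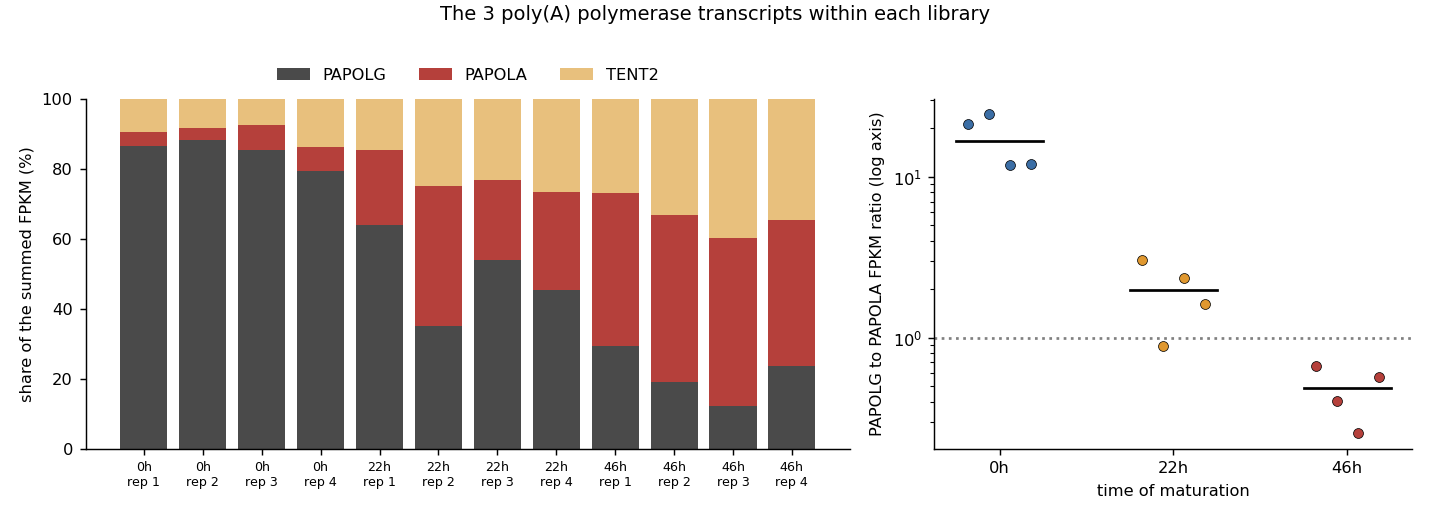
Left, share of PAPOLG, PAPOLA and TENT2 in their summed FPKM (%) in each of the 12 libraries. Right, ratio of PAPOLG to PAPOLA FPKM on a log axis, with points for libraries, bars for the median of a stage and a dotted line where both are equal. All 0h libraries have a PAPOLG share of at least 79.4% and all 46h libraries of at most 29.2%.

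CPSF4 is the zinc finger subunit of CPSF that helps recognise the AAUAAA hexamer. Its values (ENSSSCG00000026896, chromosome 3 from 6374346 to 6388662) were 6.88, 5.37, 10.40 and 17.91 FPKM at 0h, 12.68, 10.75, 8.71 and 11.53 at 22h, and 9.97, 8.68, 7.17 and 7.54 at 46h. Replicate 4 of 0h was the highest of all 12, and the stages overlapped. No change passed, with 0.21 at 22h (adjusted p = 0.578, interval -0.37 to 0.80) and -0.14 at 46h (adjusted p = 0.683, interval -0.72 to 0.45) against 0h. Without replicate 4 of 0h these were 0.51 (adjusted p = 0.0655) and 0.16, so the direction at 46h turned on that library, and it also turned under median-of-ratios scaling (0.23) and quantile normalization (0.49). From 22h to 46h the change was -0.35 (adjusted p = 0.306), and 0.15 with quantile normalization.
SYMPK, the scaffold protein symplekin, was at or near 0. Its gene (ENSSSCG00000003093, chromosome 6 from 52135580 to 52180382) was listed at 0.06, 0, 0 and 0.16 FPKM at 0h, 0.08, 0.04, 0.05 and 0 at 22h, and 0.05, 0.07, 0 and 0 at 46h. The exact two-sided permutation test gave p from 0.71 to 0.83 over the 3 comparisons. ACTB, the beta-actin gene that all cells use, was itself between 0 and 0.70 FPKM and listed at 0 in 2 libraries, so a value of 0 says only how a gene is listed. SYMPK also shares 745 exon bases with RSPH6A on the same strand in RefSeq.

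PARN, the poly(A)-specific ribonuclease, sits with CPEB1 and TENT2 in the frog oocyte complex and trims the tail there. Its values (ENSSSCG00000007878, chromosome 3 from 28616808 to 28802506) were 14.74, 12.70, 8.57 and 5.69 FPKM at 0h, 5.60, 6.68, 11.81 and 11.49 at 22h, and 8.64, 9.19, 8.62 and 9.20 at 46h. The 0h and 22h libraries were spread over more than a 2-fold range, while the 46h libraries lay between 8.62 and 9.20 FPKM. No change passed. It was -0.19 at 22h (adjusted p = 0.617, interval -0.77 to 0.39) and -0.13 at 46h (adjusted p = 0.697, interval -0.71 to 0.45) against 0h, and 0.06 between them (adjusted p = 0.866). The change at 46h against 0h was 0.23 and 0.53 with median-of-ratios and quantile scaling, and 0.050 without replicate 1 of 0h.
Set against the deadenylase in the same library, TENT2 stood at 0.477 ± 0.0381 of PARN at 0h, 0.390 ± 0.0937 at 22h and 0.638 ± 0.0995 at 46h (SD, n = 4). Every library of 46h, at 0.550 or more, was above every earlier one, at 0.525 or less. PAPOLA was at 0.274 ± 0.124 of PARN at 0h, 0.507 ± 0.228 at 22h and 0.855 ± 0.0504 at 46h. The 46h libraries, at 0.802 or more, were clear of those of 0h, at 0.457 or less, while replicate 2 of 22h at 0.841 reached into the range of 46h.

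How far the libraries' scaling sets these changes is shown for 46h against 0h. The median of all genes tested was -0.25 as deposited, -0.35 with TPM, -0.20 with TPM without mitochondrially encoded genes, 0.06 after median-of-ratios scaling and 0.37 after quantile normalization. Of all genes, 1179 were higher and 2743 lower as deposited, while median-of-ratios scaling gave 2046 and 2312 and quantile normalization 2877 and 1789. PAPOLA and PAPOLG passed in the same direction under all 5. The number of members past both thresholds went from 2 to 4 with median-of-ratios scaling, 5 with quantile normalization and 4 with TPM without mitochondrially encoded genes, through CPEB1 and CPEB2 and, with quantile normalization, TENT2.

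**Figure D4:**
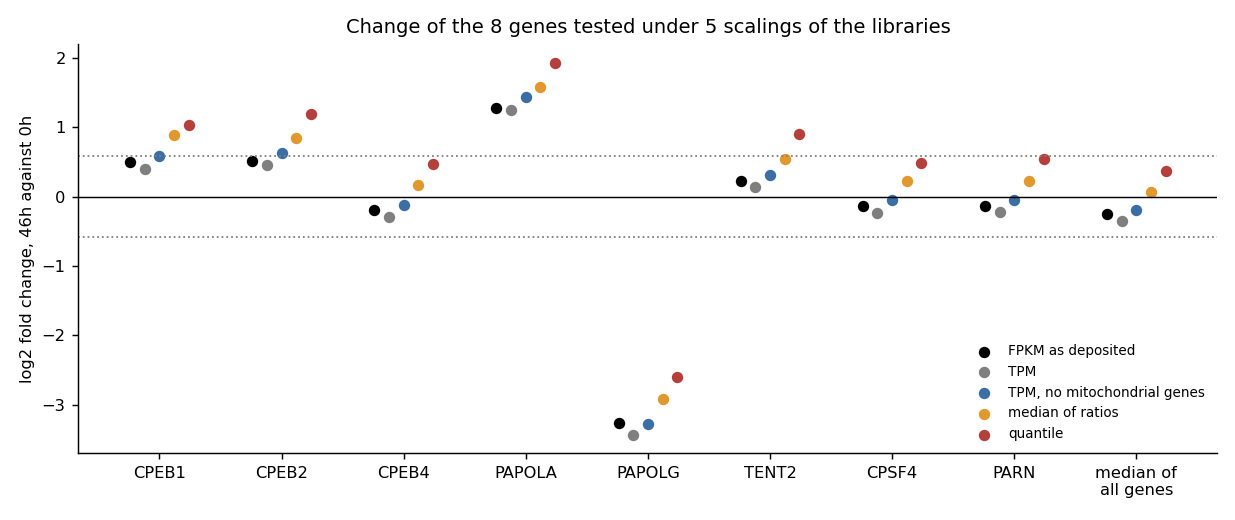
Log2 fold change at 46h against 0h (vertical axis) of the 8 tested genes and of the median of all genes under 5 scalings of the libraries, with dotted lines at a 1.5-fold change. PAPOLA from 1.24 to 1.93 and PAPOLG from -3.43 to -2.60 keep their direction, while CPEB4, CPSF4 and PARN are below 0 as deposited and above 0 with median-of-ratios and quantile scaling.

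The other genes of the pathway were taken from 6 lists. Their counts are to be read against the shares of all 7013 genes, which were 16.8% higher and 39.1% lower at 46h against 0h, 55.9% in all. The scalings moved all genes too, to 2046 higher and 2312 lower after scaling by the median of ratios and 2877 and 1789 after quantile normalization. Of 17 genes of nuclear cleavage and polyadenylation 10 were tested, and at 46h against 0h 3 were higher and 2 lower, near the share of all genes in total, with a median log2 change of 0.20. NUDT21, a subunit of cleavage factor I, rose from 217 ± 77.4 to 576 ± 70.1 FPKM (SD, n = 4; log2 change 1.48, limma adjusted p = 0.000335), and CLP1, a kinase of cleavage factor II, rose from 6.91 ± 1.42 to 16.1 ± 2.34 FPKM (1.12). CSTF1, a subunit of the cleavage stimulation factor, fell from 162 ± 84.0 to 55.9 ± 6.21 FPKM (-1.32, adjusted p = 0.00681), and CPSF3, the endonuclease of CPSF, fell from 16.9 ± 1.66 to 6.35 ± 0.605 FPKM (-1.28). At 22h against 0h 1 of the 10 was higher and 2 were lower (3 and 2 without replicate 4 of 0h, with quantile normalization or with TPM without mitochondrially encoded genes), beside 7.84% and 18.9% of all genes. From 22h to 46h 2 were higher and 0 lower beside 9.87% and 32.6%, with 2 lower at an unadjusted limma p under 0.05. For 22h to 46h the counts were 5 and 0 with quantile normalization, 3 and 0 with median-of-ratios scaling and 1 and 1 with TPM. Quantile normalization also raised the number of all genes higher from 692 to 1971. The median at 46h against 0h was above 0 under all 5 scalings (0.11 to 0.84), and the count went to 5 higher and 1 lower after scaling by the median of ratios and to 7 and 1 after quantile normalization, both of which took CSTF1 out of the calls (-0.92 and -0.88).

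Among poly(A)-binding proteins and their partners 7 of 12 were tested, and 0 were higher and 2 lower at 46h against 0h (0 and 3 at an unadjusted limma p under 0.05), fewer in each direction than the shares of all genes, with a median of -0.04. That median was above 0 with TPM without mitochondrially encoded genes (0.05), median-of-ratios (0.36) and quantile scaling (0.19), the last with 3 higher and 1 lower. It was lower with TPM (-0.15, 3 lower) and without replicate 4 of 0h (-0.29, 1 lower). PAIP2, which removes poly(A)-binding protein from the tail, was at 363 ± 95.1 FPKM at 0h, 297 ± 26.9 at 22h and 1.83 ± 0.523 at 46h, a log2 change of -6.98 (SE 0.215, adjusted p = 9.79e-12). Its relative PAIP2B fell from 3.02 ± 1.24 to 1.59 ± 0.251 FPKM (-0.59, adjusted p = 0.0239), a fall just over the fold threshold that no longer passed with median-of-ratios scaling (-0.31), with no filter on low values (adjusted p = 0.053), without replicate 4 of 0h (-0.40) or without replicate 1 or 4 of 46h (-0.55 and -0.56), and was 0.08 with quantile normalization. PABPC1, the somatic cytoplasmic form, had a mean of 0.0875 FPKM at 0h and 0.0975 at 46h and was not tested. PABPC1L, the oocyte form, averaged 3.22 ± 0.540 FPKM at 0h and 4.0 ± 1.37 at 46h (0.22, adjusted p = 0.382, but 0.90 and past the thresholds with quantile normalization). These PABPC genes were named after their values were seen.

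Of 11 other nucleotidyltransferases 8 were matched and 3 tested, TENT4A, TENT5C and MTPAP, and none passed at 46h against 0h in limma, with unadjusted p over 0.05 for all 3, while quantile normalization put 2 of them higher and median-of-ratios scaling 1. Without replicate 4 of 0h 1 was higher, and the median of the 3 was -0.01 in place of 0.14. TENT4A was higher at 22h against 0h by 1.01 (limma adjusted p = 0.0152), from 6.71 ± 3.52 to 13.4 ± 2.40 FPKM, where 7.84% of all genes were higher. This gene was named after its values were seen, and its own change was not put through the alternatives. Of 18 further deadenylases and adaptors 15 were tested, 2 higher and 3 lower at 46h against 0h, below the share of all genes in total, with a median of 0.17. CNOT7, a catalytic subunit of the CCR4-NOT complex, rose from 59.6 ± 10.5 to 116 ± 8.96 FPKM (0.96, adjusted p = 0.00037), and BTG4, the oocyte adaptor of that complex, rose from 15762 ± 1507 to 28330 ± 1878 FPKM (0.85, adjusted p = 0.000101). TOE1, a nuclear deadenylase, fell from 4.76 ± 2.62 to 0.473 ± 0.144 FPKM (-1.87, and -2.96 with a pseudocount of 0.1). CNOT10 fell from 16.4 ± 3.41 to 8.14 ± 0.642 FPKM (-0.91). The counts became 7 higher and 1 lower after scaling by the median of ratios and 8 and 1 after quantile normalization, settings that also raised the number of higher genes among all. CNOT10 did not pass under either (-0.54 and -0.27), nor BTG4 under the latter (0.34). At 22h 4 of the 15 were higher and 1 lower against 0h, and without replicate 4 of 0h, as with quantile normalization, 6 were higher and 1 lower. Of all genes 7.84% were higher and 18.9% lower at 22h, and the number higher went from 550 to 862 without that library and 1048 with quantile normalization.

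Of 18 CPE partners and regulators 10 were tested, and 0 were higher and 6 lower at 46h against 0h (0 and 7 at an unadjusted limma p under 0.05), with a median of -0.96 beside -0.25 for all genes and 39.1% of all genes lower. ZAR1, a protein that binds and stores maternal mRNAs, was at 140 ± 60.6 FPKM at 0h, 23.9 ± 12.3 at 22h and 0.703 ± 0.312 at 46h (-6.30, adjusted p = 9.97e-10). CDK1, the kinase of M phase that can phosphorylate CPEB1, was at 100.2 ± 29.3, 84.7 ± 13.5 and 0.275 ± 0.0526 FPKM (-6.26, limma adjusted p = 1.30e-11). The sizes of these 2 falls depend on the pseudocount, and with 0.1 they were -7.43 for ZAR1 and -8.03 for CDK1. The others that fell were BTRC, PUM2, EIF4E and DDX6, with log2 changes of -1.81, -0.98, -0.98 and -0.94. The median stayed below 0 under all 5 scalings (-1.08 to -0.27), and 5 were lower and 1 higher with median-of-ratios scaling, against 3 and 2 after quantile normalization. Of the 4 last named, EIF4E did not pass under either (-0.59 and -0.40), nor PUM2 and DDX6 with quantile normalization (-0.29 and -0.25).

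Of 17 mRNAs known from other species to carry CPEs 15 were tested, 6 higher and 4 lower at 46h against 0h beside 16.8% and 39.1% of all genes, with a median of 0.21, which was above 0 under all 5 scalings. Without replicate 4 of 0h 5 were higher and 5 lower. WEE2, an oocyte kinase that inhibits CDK1, went from 1283 ± 858 to 2890 ± 699.9 FPKM (1.56, limma adjusted p = 0.0406). The WEE2 call was lost with the replicate block (adjusted p = 0.0607), with TPM, with no filter on low values and in 6 of the fits with 1 library left out, where without replicate 4 of 0h it was 0.86 (adjusted p = 0.113). SMAD5 rose from 13.0 ± 3.74 to 31.6 ± 2.23 FPKM (1.26, limma adjusted p = 3.32e-05). ZP3, a zona pellucida glycoprotein, fell from 2967 ± 1188 to 95.5 ± 69.7 FPKM (-5.07), and SYCP3, of the synaptonemal complex, fell from 990 ± 67.0 to 55.0 ± 10.8 FPKM (-4.16). CCNB1, whose site is printed above and which was named after its values were seen, rose from 615 ± 293 to 1193 ± 99.2 FPKM (1.11, limma adjusted p = 0.0124). CCNB2, of the same list and also named after its values were seen, fell from 435 ± 172 to 24.7 ± 3.62 FPKM (-3.98, limma adjusted p = 2.68e-08). Of the 15 genes of this list with a RefSeq 3′ end 5, CCNB1, WEE2, TPX2, FBXO5 and SMAD5, held TTTTAT or TTTTAAT in the last 100 bases, as did 23.2% of the 5305 tested genes with a 3′ end. Among these 5, CCNB1, WEE2 and SMAD5 rose, FBXO5 fell by 1.74 and TPX2 was at -0.02, with values above 0 in 3 of the other scalings. BTG4, CNOT7, CNOT6L and ZP3 stand in more than 1 list.

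**Figure D5:**
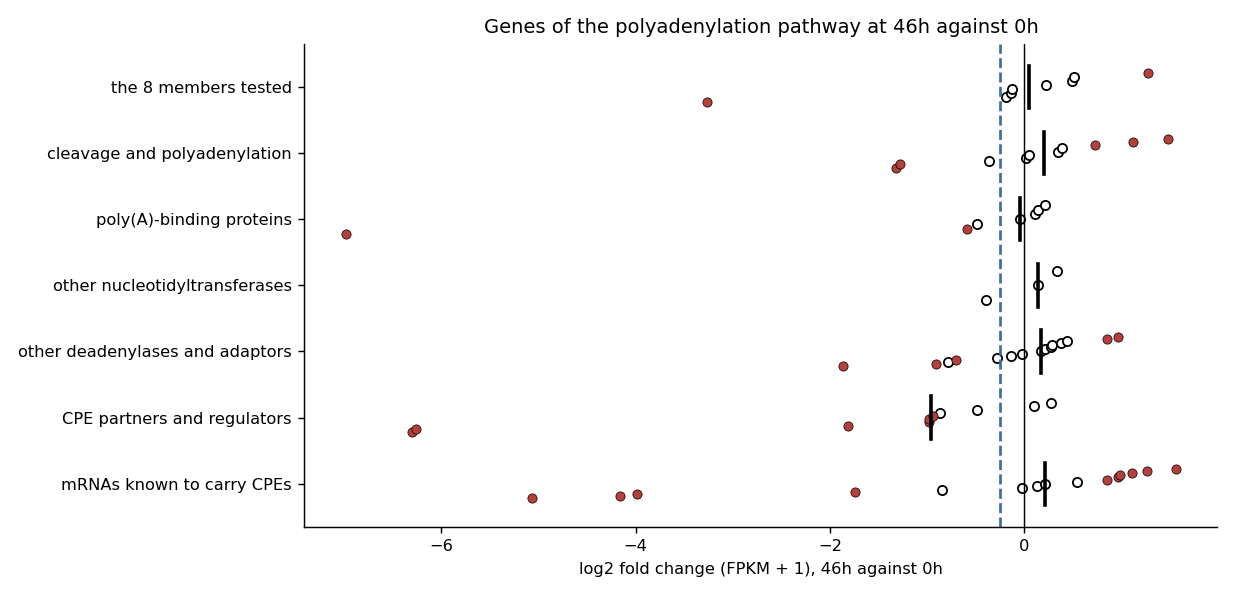
Log2 fold change at 46h against 0h (horizontal axis) of the 8 members tested and of the tested genes of 6 lists of the polyadenylation pathway. Points are genes, red where they passed both thresholds, thick bars the median of a list and the dashed line the median of all genes at -0.25. The CPE partners and regulators have the lowest median, at -0.96, below 0 under all 5 scalings. Within that list ZAR1 and CDK1 are furthest out at -6.30 and -6.26, while PAIP2 of the poly(A)-binding list is at -6.98.

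The genes most like CPEB1 over the 12 libraries were sought by Pearson's r of log2(FPKM + 1) among 6111 other named genes tested, as a description without a test, since all points share their libraries and scaling. Among the 5 most alike were NUFIP1 (r = 0.92), RNF114 (0.91), KPNA7 (0.90) and PAPSS1 (0.89). Each of these 4 but PAPSS1 had its highest mean at 22h, as CPEB1 did, and KPNA7, an importin of oocytes, went from 3574 FPKM at 0h to 6614 at 22h and 5763 at 46h. For TENT2 they were PPP2R3C (0.96), PLIN2 (0.95), FRMD3 (0.95), MGAT1 (0.94) and SEC22B (0.93). All 5 had their lowest mean at 22h, as TENT2 did, and PLIN2, a coat protein of lipid droplets, was at 158, 121 and 169 FPKM in order of time. Likeness in stage means, here and for CPEB1, follows largely from the choice by r over the same libraries.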

How the data were processed

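The authors primed SMART-Seq2 cDNA with oligo-dT, trimmed reads with Trim Galore after FastQC, aligned them with STAR to Sscrofa11 and computed FPKM with RSEM. The deposited FPKM values of the 12 libraries were used as they stand. The strand setting is not given in the sources used here, and the middle time point is 22h as in the sample labels and the study's methods, where the series' design text gives 24h. A list of gene names paired 15029 of the 31908 identifiers with a symbol. Gene positions and 3′ ends are from RefSeq on Sscrofa11.1, where TENT2 stands as PAPD4. The files hold no coordinates.

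limma 3.58.1 in R 4.3.3 (lmFit, eBayes with trend) was run on log2(FPKM + 1) with stage as the only factor. The study's own test needs counts, which are not used here. Tests were two-sided, and members under the filter had an exact permutation test. Tables and sequences were made with Python 3.11.15, pandas 2.3.3, numpy 2.4.6 and pysam 0.24.0. The fit was tested on simulated data. The members and lists were chosen with earlier results of these data known. All members are named. From each list the 2 largest rises and 2 largest falls past the thresholds at 46h against 0h are named, and for CPEB1 and TENT2 the 5 most similar genes, 1 of which is not reported here. Alternatives were pseudocount 0.1, no filter, a mean of at least 5 FPKM, 4 scalings, a fit of 2 stages only, eBayes without trend, a replicate block, no fold threshold, and each library left out.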

Additional observations from a re-analysis of the deposited data

Results flagged for a closer look

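CPEB2 at 22h was the only one of 30 sets of 4 libraries (10 genes at 3 stages) in which a single library stood apart from the others. Replicate 1 was at 9.20 FPKM and the other 3 between 4.38 and 4.91 FPKM, so the gap took 0.89 of the whole range, above Dixon's critical value for 4 samples. Chance gives this in about 1 of 20 such sets. Without that library the CPEB2 change from 22h to 46h was 0.19 in place of -0.02, and neither passed.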

How the results depend on the processing

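Of 522 fold changes of the 8 tested members under the alternatives, 473 kept their direction and their side of the threshold, 16 newly passed, 11 no longer passed, and 22 changed sign, 0 of them among values that had passed. The count of members past both thresholds at 46h against 22h was 2, and 3 with pseudocount 0.1 or only the stages compared, 1 with no filter, TPM or TPM without mitochondrially encoded genes, 0 under the filter at 5 FPKM, which leaves PAPOLA and TENT2 untested, and 1 to 3 with single libraries left out. At 46h against 0h it was 2, and 3 with no fold threshold, 1 with the filter at 5 FPKM, 4 with median-of-ratios scaling, 5 with quantile normalization, 4 with TPM without mitochondrially encoded genes, and 2 to 3 with libraries left out. At 22h against 0h it was 2, and 3 with quantile normalization and 2 to 3 with libraries left out. No same-number correlation of deviations with 0h was over 0.1. Correlations between different numbers were not computed, so whether the 0h libraries were paired with later ones is not settled. Of all 12 such correlations 3 were over 0.1 (range -0.47 to 0.38). All 3 were between 22h and 46h (0.38, 0.21 and 0.13), where the fourth pair was at 0.01, so these values do not settle whether those stages were paired. With the replicate block 1 member passed at 46h against 22h, TENT2 being lost (adjusted p = 0.0771), and the other counts were unchanged. The values of the other sign were, with median-of-ratios and quantile scaling in that order, CPEB1 0.13 and 0.22, CPEB2 0.28 and 0.47 and CPEB4 0.0044 and 0.19 at 46h against 22h, and CPEB4 0.16 and 0.47, CPSF4 0.23 and 0.49 and PARN 0.23 and 0.53 at 46h against 0h. At 46h against 22h they were also CPSF4 0.15 with quantile scaling and PARN -0.019 with TPM. CPEB3, which is not among the 522, was at 0.051 in that comparison with median-of-ratios scaling. With single libraries left out, the changes that crossed 0 ran from -0.027 (without 0h replicate 2) to 0.20 for CPEB4 and from -0.013 (0h replicate 2) to 0.51 for CPSF4 at 22h against 0h. They ran from -0.12 to 0.19 for CPEB2 (0.13 without 46h replicate 2) and from -0.11 (22h replicate 1) to 0.21 for PARN (-0.039 without 22h replicate 2) at 46h against 22h. At 46h against 0h they ran from -0.36 to 0.16 for CPSF4 (0h replicate 4) and from -0.36 to 0.050 for PARN (0h replicate 1). Tested genes of the lists named in the text were put through the alternatives after seeing the data, at 46h against 0h only. CCNB2, TENT4A, TENT5C, MTPAP, CNOT6L, VCAN and STAR were not put through them. List counts and medians were refitted only under the other scalings and without 0h replicate 4, also after seeing the data. For 46h against 0h, PAIP2B was 0.082 with quantile normalization, and TPX2 0.37 with median-of-ratios scaling, 0.47 with quantile normalization, 0.065 with TPM without mitochondrially encoded genes and -0.10 to 0.057 with libraries left out. The cause was not tested. Each symbol matched 1 identifier, so the planned sum over identifiers had nothing to change. No depth is known, so low values such as those of CPEB3 and SYMPK have no stated counting error.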

Other observations

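Genes with TTTTAT or TTTTAAT in the last 100 bases were compared with those without, a split chosen after seeing the data and given as a description with no test. At 46h against 0h the median log2 change was 0.09 for the 1233 genes with either motif and -0.29 for the 4072 without. Of those with a motif 22.6% were higher and 26.4% lower, and of those without 15.4% and 39.7%. The last 100 bases were also richer in A and T, with a median of 72% against 67%. Under 60% A and T the medians were -0.32 with and -0.91 without a motif. Within windows of 60% to 69% A and T the medians were -0.04 with and -0.28 without a motif, and within 70% to 79% they were 0.18 and -0.07. From 80% upwards they were 0.18 and 0.21, over 85 and 74 genes, so the order did not hold there. At 22h against 0h the medians were 0.17 with and -0.02 without.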
